A study of Mus musculus with 12 samples.

Results

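The genes described here encode 7 secreted proteins of the acute phase response and of antimicrobial defence: Saa3, Lcn2, Hp, Ptx3, Slpi, Lyz2 and Lyz1. They were chosen by symbol and make up 7 of the 14541 genes with deposited values, and 6 of them were among the 11242 genes tested. The cells were wild-type mouse microglia, the resident macrophages of the brain, taken from forebrains of pups aged 7 to 9 postnatal days with magnetic beads against CD11b, a surface protein that other myeloid cells, neutrophils included, also carry. One group was treated with 500 nM recombinant Hevin, a matricellular protein that astrocytes secrete, another with LPS (lipopolysaccharide from the bacterial outer membrane, at 50 ng/mL), which is sensed through Toll-like receptor 4, and the third received Media alone. All were cultured for 6 h, and each group has 4 libraries of poly(A) RNA, numbered 1 to 4.

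The acute phase response is the change in secreted proteins that follows infection or injury. It is best known from the liver, where cytokines such as interleukin 1 and interleukin 6 act through NF-κB, C/EBP and STAT3, but macrophages make several of the same proteins at the site of inflammation. Among the members, serum amyloid A3, haptoglobin and pentraxin 3 are acute phase or pattern recognition proteins, lipocalin 2 withholds iron from bacteria by binding their siderophores, the secretory leukocyte protease inhibitor restrains neutrophil elastase, and the lysozymes cleave the bacterial cell wall. Neutrophil granules also store proteins of this kind, among them the products of Lcn2 and Hp.

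Levels are FPKM, which relate reads to gene length and library size. Log2 fold changes carry their SE and were computed on log2(FPKM + 1), so that the change of genes with low values is understated. A gene is called at a Benjamini-Hochberg adjusted p under 0.05 over all 11242 genes in limma. The replicate numbers were taken to pair the libraries, so values from a fit with the number as a block are given where they change a call. Nothing in the labels tells whether replicate libraries are separate animals or cultures, and the p-values therefore describe the spread among the 12 libraries, which may be technical.

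The 3 libraries numbered 2 stood apart in all 3 groups. Of 24 neutrophil markers 23 were listed, and their summed level was 2222 FPKM in Hevin number 2, 2425 FPKM in LPS number 2 and 2455 FPKM in Media number 2, against 72.9 to 164 FPKM in the other 9 libraries. Of the 23 markers, 19 were above all 9 other libraries in all 3 libraries numbered 2, as were 245 of the 11242 tested genes (2.18%), and 4 of the 23 were at 0 in at least 1 library. None of the 7 members is on that marker list, and none had all 3 libraries numbered 2 above all 9 others. All 14 microglia markers were listed in every library, with sums of 1270 to 1913 FPKM in Hevin, 634 to 947 FPKM in LPS and 714 to 1002 FPKM in Media. The 14 monocyte and border macrophage markers summed to 689 to 917 FPKM in Hevin, 801 to 944 FPKM in LPS and 889 to 1044 FPKM in Media. Of these, 3 were above all 9 other libraries in all 3 libraries numbered 2 (Ly6c2, Plac8 and Chil3, the last also a neutrophil marker). The part of such cells in the member levels was not tested. The 11 astrocyte markers summed to 22.4 to 48.9 FPKM in Hevin, 114 to 237 FPKM in LPS and 51.3 to 89.8 FPKM in Media. Most of that was Gja1, and the other 10 summed to 2.47 to 15.7 FPKM in Hevin, 3.29 to 20.5 FPKM in LPS and 3.05 to 15.2 FPKM in Media. In RNA from a mixture of cells, a change in the number of cells of a type and a change in RNA per cell cannot be told apart.

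Saa3, the serum amyloid A of macrophages and other cells outside the liver in mice, had the largest log2 fold change of the 6 tested members in LPS against Media. The gene lies on the minus strand of chromosome 7 (GRCm38, chr7:46711998-46715700). The sequence upstream is shown for Saa3 and for Slpi because these were the members called between LPS and Media without the block. That of Saa3 is chr7:46715701-46715926 on the minus strand, from RefSeq (GRCm38.p6), with capitals for matches to the C/EBP motif TTNNGNAA on either strand:

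Saa3: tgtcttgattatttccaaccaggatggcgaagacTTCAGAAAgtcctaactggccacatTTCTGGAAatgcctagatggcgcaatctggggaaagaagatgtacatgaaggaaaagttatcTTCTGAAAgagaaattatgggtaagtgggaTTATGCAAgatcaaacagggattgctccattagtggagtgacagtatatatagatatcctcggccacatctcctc

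Saa3 had 1.22, 4.02, 4.45 and 4.67 FPKM in the Hevin libraries numbered 1 to 4, 490, 337, 1219 and 1479 FPKM in the LPS libraries, and 8.04, 6.32, 10.9 and 7.00 FPKM in the Media libraries. Every LPS library was far above every other library, and every Hevin library was below every Media library. LPS against Media gave a log2 fold change of 6.37 ± 0.44 (limma adjusted p = 1.15e-06), with ratios within a number of 61.0, 53.3, 111 and 211. Across the 39 alternative settings this log2 fold change ran from 5.83 to 6.78 and the limma adjusted p was at most 2.86e-05.

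The Saa3 values in Hevin were low in number 1, at 18 recovered reads, against 49 to 75 reads in the other Hevin libraries and 65 to 158 reads in Media. The ratio of Hevin to Media was 0.152, 0.636, 0.407 and 0.667 in numbers 1 to 4. The log2 fold change of -1.05 ± 0.44 was not called without the block (limma adjusted p = 0.201) and was called with it (limma adjusted p = 0.0404). With the block and 1 of the 12 libraries left out at a time, it was called in 4 of 12 fits, with limma adjusted p from 0.0103 to 0.142. It was called without Hevin 2, LPS 2, LPS 4 or Media 4, and lost without any of the other 8 libraries. Against LPS, Saa3 was lower in Hevin by 7.42 ± 0.44 on the log2 scale (log2 fold change -7.42, limma adjusted p = 1.60e-07), and the LPS level was 401, 83.9, 274 and 317 times the Hevin level in numbers 1 to 4.

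**Figure D1:**
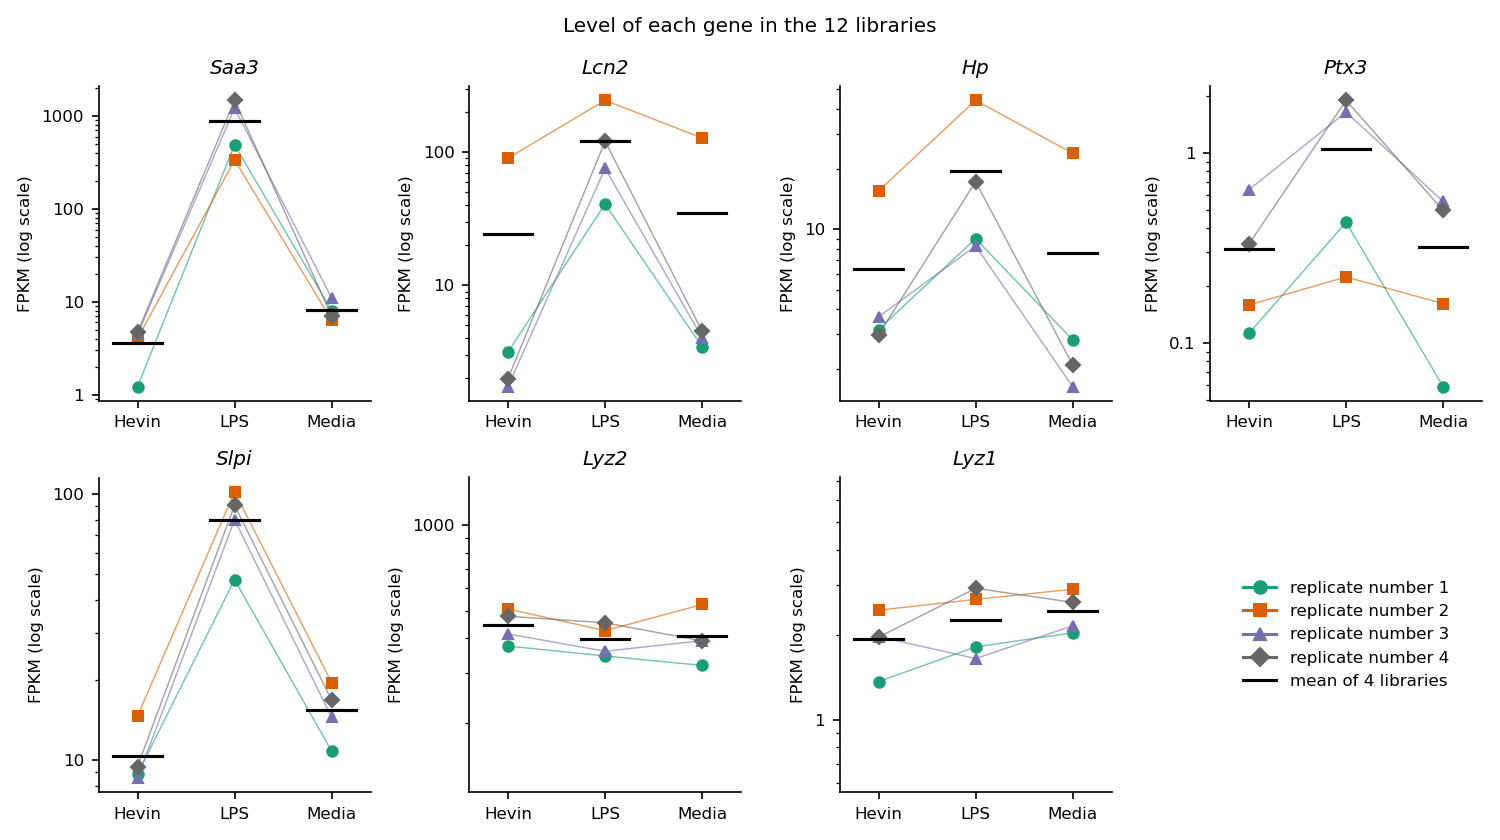
Level of each of the 7 genes in FPKM (log axes) in the Hevin, LPS and Media libraries. Points are libraries, lines join libraries of the same replicate number, and black bars are means of 4 libraries. Saa3 and Slpi are higher in every LPS library than in any other, number 2 is the highest library of each group for Lcn2, Hp and Slpi, and the 12 Lyz2 values lie between 320 and 525 FPKM.

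Slpi, a protease inhibitor with antibacterial activity, differed between LPS and Media by a similar ratio in every number. Its gene is on the minus strand of chromosome 2 (GRCm38, chr2:164354070-164389095) and shares exonic sequence on the same strand with Mir7678. The region upstream of its RefSeq start, chr2:164356508-164356757 on the minus strand (RefSeq, GRCm38.p6), has the C/EBP matches in capitals:

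Slpi: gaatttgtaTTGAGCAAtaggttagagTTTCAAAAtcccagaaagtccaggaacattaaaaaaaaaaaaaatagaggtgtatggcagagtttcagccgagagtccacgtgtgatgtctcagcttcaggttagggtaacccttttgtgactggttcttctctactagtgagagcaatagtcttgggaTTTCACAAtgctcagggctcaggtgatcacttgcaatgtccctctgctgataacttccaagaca

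Slpi had 8.88, 14.7, 8.57 and 9.47 FPKM in Hevin numbers 1 to 4, 47.7, 102, 80.1 and 90.7 FPKM in LPS, and 10.8, 19.6, 14.5 and 16.8 FPKM in Media. All 4 LPS libraries were above all others, while the Hevin and Media libraries overlapped. The ratio of LPS to Media was 4.40, 5.21, 5.53 and 5.39 in numbers 1 to 4, and the log2 fold change was 2.28 ± 0.24 (limma adjusted p = 3.87e-05). Without the 3 libraries numbered 2 the LPS call of Slpi held (limma adjusted p = 2.00e-04).

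Slpi was lower in Hevin than in Media in all 4 numbers, with ratios of 0.820, 0.749, 0.592 and 0.563. The log2 fold change was -0.53 ± 0.24 and was not called without the block (limma adjusted p = 0.247). With the block Slpi was called (limma adjusted p = 0.00898), also in each of the 12 fits that left out 1 library (limma adjusted p from 0.00202 to 0.0419). Hevin against LPS gave -2.81 ± 0.24 (limma adjusted p = 3.75e-06).

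**Figure D2:**
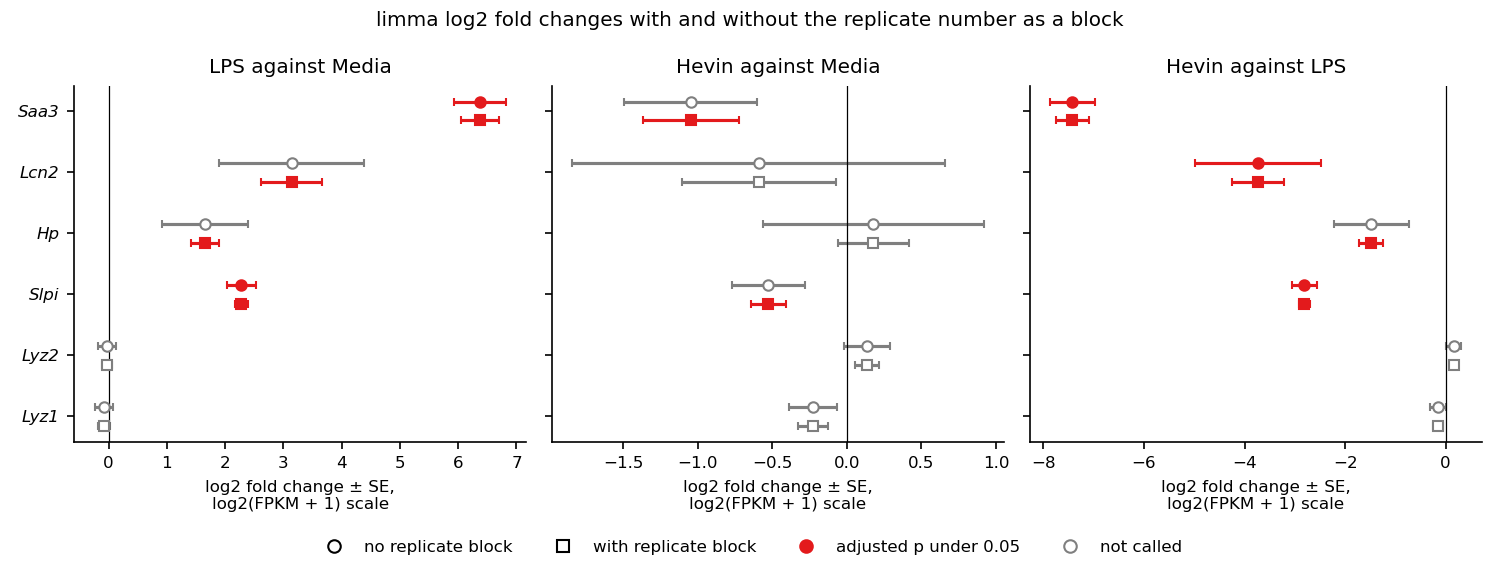
Log2 fold change with its SE, on the log2(FPKM + 1) scale, of the 6 tested genes in LPS against Media, Hevin against Media and Hevin against LPS. Circles are the fit without and squares the fit with the replicate number as a block, and filled red symbols have an adjusted p under 0.05. The estimates are the same in both fits, and the SE of Lcn2 is 1.25 without the block and 0.516 with it.

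Lcn2, the gene of lipocalin 2 (GRCm38, chr2:32384633-32388252, minus strand), was highest in the library numbered 2 of each group. It had 3.17, 90.3, 1.74 and 1.99 FPKM in Hevin numbers 1 to 4, 40.8, 246, 75.8 and 121 FPKM in LPS, and 3.45, 128, 4.05 and 4.53 FPKM in Media. Number 2 stood far above the other libraries in Hevin and Media and less so in LPS, and the LPS libraries overlapped those of both other groups only through the Hevin and Media libraries numbered 2. Within a number, LPS was 11.8, 1.92, 18.7 and 26.7 times Media. As a difference in FPKM rather than a ratio, LPS exceeded Media by 37.4, 118, 71.7 and 116 in numbers 1 to 4, so number 2 was not low on that scale.

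The Lcn2 log2 fold change between LPS and Media was 3.14 ± 1.25, which was not called without the block (limma adjusted p = 0.0862) and was called with it (limma adjusted p = 6.31e-04). Without the 3 libraries numbered 2 it was 3.87 and was called also without the block (limma adjusted p = 7.91e-05). Hevin against LPS gave -3.73 ± 1.25 (limma adjusted p = 0.0311), and that call was lost without Hevin 1, 3 or 4 or LPS 2, 3 or 4 (limma adjusted p up to 0.0863) and held with the block (limma adjusted p = 1.17e-04). Against Media, Lcn2 in Hevin had ratios of 0.916, 0.705, 0.429 and 0.441. The ratio was below 1 in 4 of 4 numbers, but Lcn2 was not called in either fit (log2 fold change -0.59 ± 1.25, limma adjusted p = 0.867, and 0.461 with the block), and 23.6% of all tested genes were lower in Hevin in all 4 numbers.

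Hp, the gene of haptoglobin, which binds free haemoglobin (GRCm38, chr8:109575128-109579172, minus strand), was likewise highest in the library numbered 2 of each group. It had 3.16, 15.6, 3.66 and 2.98 FPKM in Hevin numbers 1 to 4, 8.99, 44.1, 8.27 and 17.3 FPKM in LPS, and 2.81, 24.0, 1.64 and 2.11 FPKM in Media. Outside number 2 all LPS libraries were above all Hevin and Media libraries. LPS was 3.20, 1.84, 5.04 and 8.22 times Media within a number, a log2 fold change of 1.65 ± 0.74 (limma adjusted p = 0.124, and 2.68e-04 with the block). Without the 3 libraries numbered 2 it was 1.92 (limma adjusted p = 7.50e-04).

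Hp in Hevin was lower than in LPS in all 4 numbers (log2 fold change -1.48 ± 0.74, limma adjusted p = 0.130, and 3.59e-04 with the block). Against Media its ratios in Hevin were 1.12, 0.648, 2.23 and 1.41, on both sides of 1, and it was not called in either fit (log2 fold change 0.18 ± 0.74, limma adjusted p = 0.936, and 0.650 with the block).

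Outside number 2 the neutrophil marker sum was 72.9 to 113 FPKM in Hevin, 144 to 164 FPKM in LPS and 87.2 to 95.8 FPKM in Media. The sum too was higher in LPS, and calls among its markers went in both directions. Without number 2 and without the block, 4 of 18 tested markers were called higher in LPS than in Media (Stfa2l1, S100a8, Csf3r and Ngp). G0s2 was called lower, with means of 0.151 FPKM in LPS and 1.99 FPKM in Media. It is 1 of the 4 markers that were not above all 9 other libraries in all 3 libraries numbered 2, as is Csf3r. Of 11242 tested genes, 1468 were called higher and 1174 lower in that fit. Without number 2 and with the block, 7 of the 18 were called higher (S100a9, Chil3 and Camp added) and 1 lower (G0s2). Of all tested genes 2309 were then higher and 2329 lower. The median log2 fold change over the 18 was 0.19. S100a8, a calprotectin subunit of neutrophils, had 609, 624 and 501 FPKM in Hevin, LPS and Media number 2 and 12.3 to 49.5 FPKM in the other 9 libraries. Ngp, a neutrophil granule protein gene, had 345, 424 and 400 FPKM in number 2 and 4.52 to 9.17 FPKM elsewhere. Lcn2 was 5.09 to 13.2 times Ngp in the LPS libraries numbered 1, 3 and 4, against 0.317 to 0.441 times in Hevin and 0.559 to 0.873 times in Media. In number 2 it was 0.262, 0.579 and 0.320 times Ngp in Hevin, LPS and Media. Number 2 was the highest library of all 3 groups for 3 members, Lcn2, Hp and Slpi, and for 8.47% of all tested genes. For Lyz2 and Lyz1 it was the highest library in Hevin and in Media but not in LPS. The part of neutrophil RNA in these levels was not tested. The log2 fold changes of Lcn2 and Hp between LPS and Media were larger without number 2 (3.87 and 1.92) than with it (3.14 and 1.65).

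**Figure D3:**
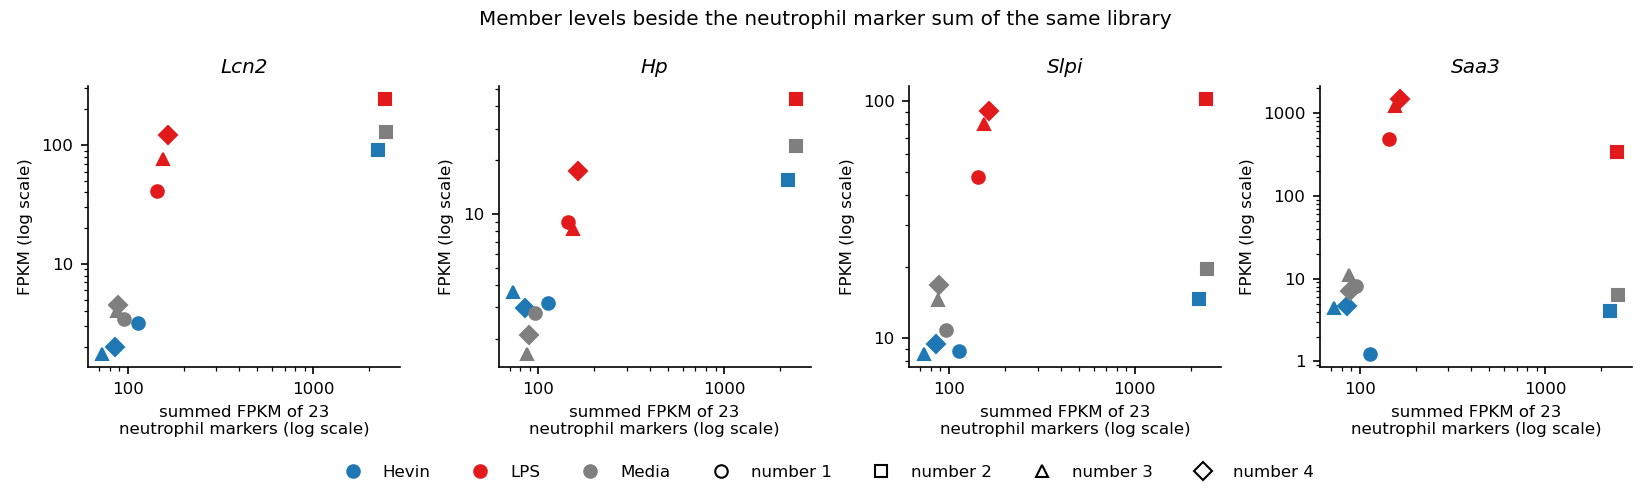
FPKM of Lcn2, Hp, Slpi and Saa3 against the summed FPKM of 23 neutrophil markers in the same library (log axes), with colours for Hevin, LPS and Media and shapes for replicate numbers. The 3 libraries numbered 2 lie at sums of 2222 to 2455 FPKM and the other 9 at 72.9 to 164 FPKM, and Lcn2 and Hp are high at number 2 in each colour while Saa3 is not.

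Ptx3, the gene of the long pentraxin 3 (GRCm38, chr3:66219910-66225805, plus strand), had only 3 to 77 recovered reads per library. It had 0.112, 0.159, 0.640 and 0.332 FPKM in Hevin numbers 1 to 4, 0.431, 0.222, 1.64 and 1.89 FPKM in LPS, and 0.0590, 0.161, 0.555 and 0.498 FPKM in Media. Only LPS numbers 3 and 4 reached 1 FPKM, so Ptx3 did not pass the filter on low values and was not among the genes tested. LPS was above Media in all 4 numbers, and numbers 3 and 4 were above numbers 1 and 2 in all 3 groups, an order found in 7.48% of all tested genes.

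With every listed gene tested, the log2 fold change of Ptx3 between LPS and Media was 0.55 (limma adjusted p = 0.172, and 0.0117 with the block), and between Hevin and LPS it was -0.56 (limma adjusted p = 0.125, and 0.00763 with the block). The summed level of 10 endothelial markers was 111 to 187 FPKM in the 6 libraries numbered 3 and 4, against 32.1 to 95.2 FPKM in those numbered 1 and 2, and the sum of 10 fibroblast and mural markers was 48.0 to 98.5 FPKM against 11.4 to 41.9 FPKM. The part of these cells in the Ptx3 values was not tested.

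Lyz2 and Lyz1, the genes of the macrophage and the Paneth cell lysozyme in mice, were not called in any comparison in the fits of all 12 libraries to the FPKM values as deposited, with or without the block. They are neighbours on the minus strand of chromosome 10 (GRCm38), Lyz2 at chr10:117277331-117282321 and Lyz1 at chr10:117287797-117292868. Their coding sequences are 447 bases each with 95.1% identity, and because reads of one can match the other, the first 120 bases from the start codon (GENCODE transcripts) are shown with the 11 bases that differ in capitals:

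Lyz2: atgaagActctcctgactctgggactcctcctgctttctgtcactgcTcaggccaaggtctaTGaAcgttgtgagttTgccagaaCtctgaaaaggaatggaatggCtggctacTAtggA
Lyz1: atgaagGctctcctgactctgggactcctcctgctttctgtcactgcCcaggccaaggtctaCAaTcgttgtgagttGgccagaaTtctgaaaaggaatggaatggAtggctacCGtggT

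Reads were 100 bases long. Of all 100-base windows of the Lyz1 transcript 2.06% occurred letter for letter in Lyz2, and of all 50-base windows 16.1%. Lyz2 had 150 to 274 times the FPKM of Lyz1, so a small share of Lyz2 reads counted for Lyz1 could alter its value. The separate value of Lyz1 is therefore uncertain.

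Lyz2 had 374, 506, 413 and 477 FPKM in Hevin numbers 1 to 4, 345, 425, 359 and 452 FPKM in LPS, and 320, 525, 391 and 391 FPKM in Media, at 7488 to 14235 recovered reads. The 3 groups overlapped, with means of 443 ± 59.8, 395 ± 51.4 and 407 ± 85.8 FPKM in Hevin, LPS and Media (SD, n = 4 each). Lyz2 was not called in any of the 3 comparisons, with log2 fold changes of 0.13 ± 0.15 for Hevin against Media, -0.03 ± 0.15 for LPS against Media and 0.16 ± 0.15 for Hevin against LPS (limma adjusted p = 0.710, 0.924 and 0.428). Within every number Lyz2 was higher in Hevin than in LPS, with ratios of 1.08, 1.19, 1.15 and 1.05, as were 32.8% of all tested genes. Under quantile normalization Lyz2 was called lower in LPS than in Media (log2 fold change -0.53, limma adjusted p = 0.0210) and higher in Hevin than in LPS (0.76, limma adjusted p = 0.00173). It was also called higher in Hevin than in LPS with the authors' scaling factors taken out (0.52, limma adjusted p = 0.0185), and with the block in 1 of 12 fits that left out a library, that without LPS number 4 (0.22, limma adjusted p = 0.0494).

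Lyz1 lay between 1.37 and 2.92 FPKM in all 12 libraries, at 47 to 93 reads, and the ratio of Lyz2 to Lyz1 was 150 to 274. It was not called in any comparison or setting, and was lower in Hevin than in Media in all 4 numbers, with ratios of 0.673, 0.843, 0.916 and 0.753 (log2 fold change -0.23 ± 0.16, limma adjusted p = 0.489, and 0.144 with the block).

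**Figure D4:**
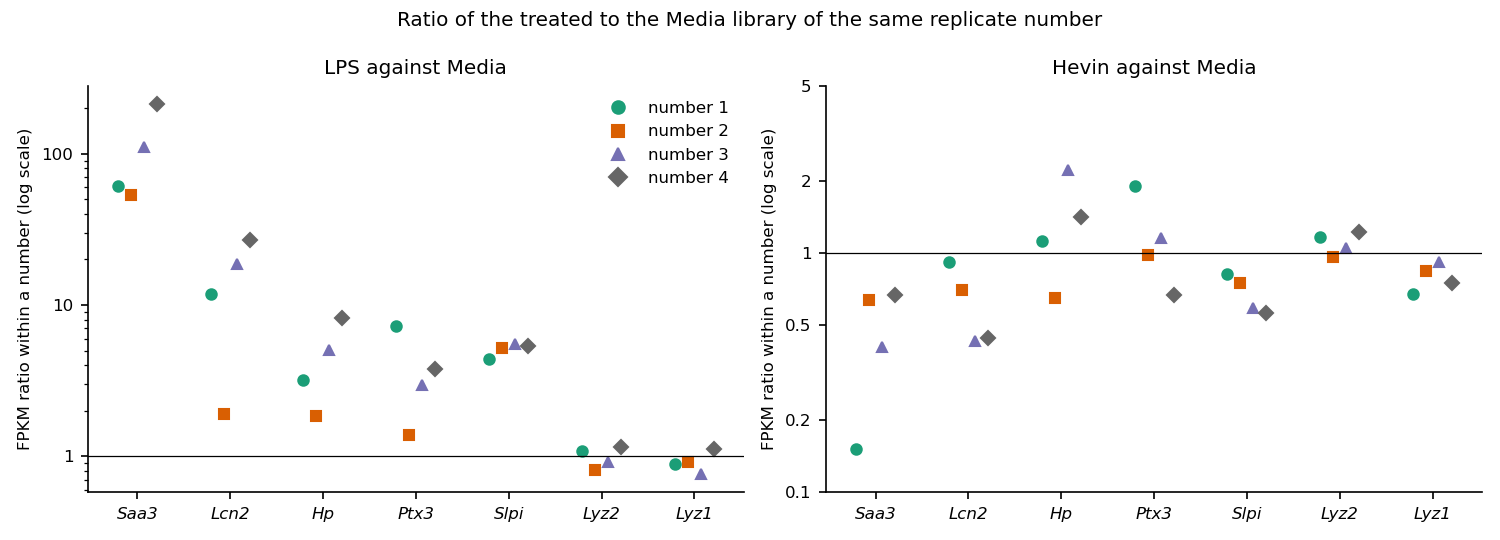
Ratio of the FPKM of the LPS library (left) and of the Hevin library (right) to the Media library of the same replicate number, for all 7 genes, on log axes with a line at 1. For LPS the ratio is 53.3 to 211 for Saa3 and 4.40 to 5.53 for Slpi, and number 2 has the lowest ratio for Saa3, Lcn2, Hp, Ptx3 and Lyz2.

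Within a replicate number, 5 of the 7 members (Saa3, Lcn2, Hp, Ptx3 and Slpi) were higher in LPS than in Media in all 4 numbers, as were 25.8% of all tested genes, and the same 5 were lower in Hevin than in LPS in all 4, against 30.5%. In Hevin against Media 4 members (Saa3, Lcn2, Slpi and Lyz1) were lower in all 4 numbers, against 23.6% of genes. Without regard to number, the LPS libraries lay above all Media libraries for 2 members (Saa3 and Slpi), against 13.3% of genes, and the Hevin libraries lay below all LPS libraries for the same 2, against 17.5%. The Hevin libraries lay below all Media libraries for Saa3, against 7.55% of genes.

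Counted by test, 2 of the 6 tested members were called higher in LPS than in Media without the block (Saa3 and Slpi), against 13.2% of all tested genes called higher and 12.6% called lower, and 4 higher with the block (Lcn2 and Hp added), against 21.5%. Between Hevin and LPS 3 were called lower (Saa3, Lcn2 and Slpi), against 19.7% of genes called lower and 22.0% called higher, and 4 lower with the block, against 28.0%. Between Hevin and Media 0 were called by limma and 0 by voom on recovered reads, both without the block. By limma 4.27% of all tested genes were called higher and 3.10% lower. An unadjusted limma p under 0.05 was found for 1 of the 6 members, beside 2303 of 11242 tested genes in either direction. With the block Saa3 and Slpi were called lower, against 10.6% of genes. The median log2 fold change over the 6 was -0.38 for Hevin against Media, 1.97 for LPS against Media and -2.14 for Hevin against LPS, beside all-gene medians of 0.00, -0.02 and 0.02. Since both treatments are set against the same Media libraries and the LPS libraries enter a pair of these comparisons, the counts are not independent.

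In the window from 250 bases before to 50 bases after the RefSeq start, the C/EBP motif TTNNGNAA occurred in 6 of 6 members with a promoter entry (Saa3, Lcn2, Ptx3, Slpi, Lyz2 and Lyz1), and in 40.7% of 32544 RefSeq promoters of the same 300 bases. A loose form of the NF-κB motif occurred in Lcn2 and Ptx3, 2 of 6, against 51.0% of all promoters. The STAT motif TTCNNNGAA and TATAAA occurred in none of the 6, against 8.33% and 13.6%. The searches covered both strands, and the Ptx3 matches to the NF-κB form overlap each other and lie at and after the start.

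Among other acute phase genes, 14 of 28 were listed and 11 tested. In LPS against Media 7 of the 11 were higher and 0 lower (9 and 0 with the block), against 13.2% of all tested genes called higher (21.5% with the block), with a median log2 fold change of 0.79. The largest was Steap4, a metalloreductase gene, at 41.4 ± 27.2 FPKM in LPS and 1.63 ± 0.760 FPKM in Media (SD, n = 4 each; log2 fold change 3.79 ± 0.40, limma adjusted p = 3.71e-05). Complement factor B (Cfb) had 43.2 ± 24.2 FPKM in LPS and 7.76 ± 3.41 FPKM in Media, Serpina3f had 7.71 ± 2.24 FPKM in LPS and 1.02 ± 0.569 FPKM in Media, and the metallothionein gene Mt2 had 173 ± 69.8 FPKM in LPS and 44.3 ± 10.1 FPKM in Media. In Hevin against Media the metallothioneins Mt1 and Mt2 were lower, 2 of 11, against 3.10% of all tested genes, and 0 were higher. Mt1 had 123 ± 12.9 FPKM in Hevin and 192 ± 31.2 FPKM in Media (limma adjusted p = 0.00559), and the call for Mt2 (limma adjusted p = 0.0486) was lost in 19 of 39 alternatives.

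Of 29 other antimicrobial genes 21 were listed and 18 tested, 8 of which are also neutrophil markers. In LPS against Media 3 were higher and 0 lower, near the 13.2% of all tested genes called higher, and 9 were higher with the block, against 21.5%. The guanylate-binding protein gene Gbp2 had 178 ± 85.6 FPKM in LPS and 20.5 ± 14.5 FPKM in Media. Wfdc17, which encodes a protein of the same domain family as Slpi, had 53.6 ± 15.8 FPKM in LPS and 13.3 ± 3.51 FPKM in Media, and the adrenomedullin gene Adm had 30.0 ± 7.22 FPKM in LPS and 11.6 ± 3.90 FPKM in Media. In Hevin against Media 0 of 18 were called by limma without the block, and 3 with it, 2 higher and 1 lower, against 10.8% and 10.6% of all tested genes. The median log2 fold change over the 18 was -0.01 for Hevin against Media and 0.42 for LPS against Media. Gbp2, Wfdc17 and Adm were also the 3 called lower in Hevin than in LPS without the block, against 19.7% of all tested genes, at 17.6 ± 12.5, 13.6 ± 2.21 and 8.43 ± 1.19 FPKM in Hevin. With the block 10 were lower, against 28.0% of genes, and 2 higher, against 29.9%. Added to the lower ones were Wfdc21 and 6 genes that are also neutrophil markers (S100a8, S100a9, Chil3, Camp, Ngp and Ltf), and the higher ones were Rnase4 and Cst3. Without the 3 libraries numbered 2 and without the block 7 were lower and 0 higher, against 2134 and 2156 of 11242 tested genes. The 7 were Wfdc17, Wfdc21, Gbp2, Adm and the neutrophil markers S100a8, S100a9 and Ngp.

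Of 20 tested genes for receptors and binding partners of these proteins, 4 were higher and 2 lower in Hevin than in Media (5 and 4 with the block), and 6 were higher and 3 lower in LPS than in Media (9 and 5 with the block), with a median log2 fold change of 0.08 in both. Of all tested genes, 4.27% were called higher and 3.10% lower in Hevin than in Media (10.8% and 10.6% with the block), and 13.2% higher and 12.6% lower in LPS than in Media (21.5% and 22.2% with the block), so the 3 lower in LPS are near the share of all genes. Tlr2, a Toll-like receptor gene that serum amyloid A can engage, had 300 ± 61.7 FPKM in Hevin, 274 ± 47.5 FPKM in LPS and 72.6 ± 32.9 FPKM in Media and was called higher in Hevin and in LPS, each against Media (limma adjusted p = 2.31e-04 and 1.20e-04). The endocytic receptor gene Lrp1 had 97.9 ± 11.1 FPKM in Hevin, 24.8 ± 7.54 FPKM in LPS and 36.4 ± 5.64 FPKM in Media. Fpr1 and Fpr2 encode formyl peptide receptors, and Fpr2 can bind serum amyloid A. Fpr1 had 2.72 ± 0.378 FPKM in Hevin, 71.7 ± 29.1 FPKM in LPS and 6.50 ± 1.03 FPKM in Media, and was called lower in Hevin than in Media (limma adjusted p = 0.0157, and 0.0872 without number 2). Fpr2 had 3.67 ± 3.11 FPKM in Hevin, 24.2 ± 9.09 FPKM in LPS and 5.62 ± 4.54 FPKM in Media. The haemoglobin and haptoglobin receptor gene Cd163 had 7.29 ± 1.66 FPKM in Hevin and 15.1 ± 3.88 FPKM in LPS (limma adjusted p = 0.00190).

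Of 23 tested inducers and transcription factors of the acute phase response, 15 were higher and 1 lower in LPS than in Media (18 and 2 with the block), against 13.2% and 12.6% of all tested genes (21.5% and 22.2% with the block), with a median log2 fold change of 1.17. In Hevin against Media 2 were higher and 3 lower (4 and 10 with the block), against 4.27% and 3.10% of all tested genes (10.8% and 10.6% with the block), with a median of -0.24. Interleukin 6 (Il6) had 2.71 ± 0.892 FPKM in Hevin, 421 ± 300 FPKM in LPS and 8.75 ± 5.67 FPKM in Media, with LPS against Media at 5.19 ± 0.57 on the log2 scale (limma adjusted p = 5.02e-05). Interleukin 1β (Il1b) had 53.4 ± 21.7 FPKM in Hevin, 2231 ± 573 FPKM in LPS and 164 ± 26.1 FPKM in Media. Socs3, a feedback inhibitor of STAT3 signalling, was called between LPS and Media (429 ± 116 FPKM in LPS, 17.5 ± 3.43 FPKM in Media). Cebpa, a C/EBP family gene, was higher in Hevin (124 ± 18.2 FPKM) than in Media (29.1 ± 8.12 FPKM, limma adjusted p = 2.07e-04), and 19.8 ± 7.64 FPKM in LPS.

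Likeness between genes was described over the 12 libraries, grouped by treatment and paired by number, as Pearson r of log2(FPKM + 1) deviations from group means. Lcn2 and Hp deviated together (r = 0.931), and each was most like Fpr2 among 7913 other genes (r = 0.975 and 0.970). Slpi, Lyz2 and Lyz1 deviated with both of them as well (r = 0.640 to 0.774). Fpr2, like Lcn2 and Hp, was highest in the library numbered 2 of each group, and r was not computed without these libraries. Saa3 and Ptx3 deviated together (r = 0.860), while Saa3 and Lcn2 did not (r = -0.113). The r with Ptx3 rests on low values, at 3 to 77 reads per library and at least 1 FPKM only in LPS numbers 3 and 4. Over levels, which also hold the treatment, the gene most like Saa3 was Slamf1 (r = 0.995) and the gene most like Slpi was Il1a (r = 0.988).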

How the data were processed

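Sample titles gave the group and number of each library, and numbers 1 to 4 match the deposited column labels Group 4 to Group 7. Poly(A) RNA was made into libraries with a stranded kit, per the labels' protocols. The authors deposited FPKM in 1 table of 14541 genes. The submitters' processing notes name the build mm10, edgeR 3.30.3, R 4.0.0, featureCounts of Subread 1.6.3, Bowtie2 2.3.5.1, Trimmomatic 0.39 and FastQC 0.11.7, without roles. Which annotation was used, and whether strand was, is not given in the sources used here, so antisense overlap is not separated. Of the row names, 22 are dates.

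Whole reads were recovered from the FPKM steps: in 14541 of 14541 rows (100%) all 12 values were whole within 0.1, at 18343996 to 27361665 reads per library. The recovery was tested on simulated data, up to a common divisor of a row. Depth is over the listed genes, and reads have no molecular identifiers.

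Log2(FPKM + 1) of genes that reached 1 FPKM in 4 or more libraries was fitted with limma 3.58.1 (R 4.3.3, all 12 libraries, mean-variance trend), without the replicate number, which was added as a block in an alternative. Deviations from group means correlated in all 12 same-number pairs (0.230 to 0.784, mean between different numbers -0.201), and the numbers were taken to pair the libraries. Deviations cancel out within a group, so the negative mean is no independent contrast. Pairs of number 3 with number 4 also correlated (0.435 to 0.528, against 0.230 to 0.512 within number 4), so the check tells number 4 from number 3 poorly. Alternatives were pseudocounts of 0.1 and 5, filters of 5 FPKM and none, both groups compared only, no trend, scalings, voom on recovered reads, the block, and leaving out each library or number 2. Chosen after seeing the data were the block with each library left out and the block with no filter.

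The members and lists were chosen with earlier results of these data known. All 7 members are named. From each other list up to 4 called genes per comparison with the largest log2 fold change were eligible, and the text leaves out some. Likeness used genes with a mean of at least 5 FPKM in 1 group. Hp had no promoter entry. Positions are from GENCODE M21 (GRCm38), promoter sequences from RefSeq (GRCm38.p6). Figures were drawn with matplotlib 3.10.9.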

Additional observations from a re-analysis of the deposited data

Results flagged for a closer look

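Among 27 groups of 4 libraries tested for a library far from the rest (the 7 members and 2 marker sums in 3 groups), 8 were found, and all 8 were the library numbered 2. Chance gives about 1 in 20 for independent groups of normally distributed values. These groups are paired by number across treatments and the FPKM were untransformed, so the 8 cannot be set against that rate. For Lcn2 it had 90.26 FPKM in Hevin and 128 FPKM in Media, for Hp 15.56 FPKM in Hevin and 24.02 FPKM in Media, and for Slpi 14.66 FPKM in Hevin. The neutrophil marker sum was 2222 FPKM in Hevin, 2425 FPKM in LPS and 2455 FPKM in Media. In LPS, number 2 was also the highest library for Lcn2, Hp and Slpi, without passing that limit.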

How the results depend on the processing

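Without the block, 0, 2 and 3 members were called in Hevin against Media, LPS against Media and Hevin against LPS. With the replicate block, which pairs libraries by number, the counts were 2, 4 and 4, with voom on recovered reads and the replicate block 2, 4 and 4, without the 3 libraries numbered 2 0, 4 and 4, and without number 2 with the block 2, 4 and 4. LPS against Media counted 4 without Media number 2. In the same order of comparisons, the tested genes called lower, higher and lower were 349, 1484 and 2215 of 11242 without the block. They were 1196, 2416 and 3149 with the block, and 1366, 2438 and 3162 with voom and the block. Without number 2 they were 253, 1468 and 2134, and 971, 2309 and 3021 with the block. Without Media number 2, 1384 genes were called higher in LPS than in Media. With the block and no filter the counts of members were 1, 5 and 5, against 1137, 2539 and 3330 of 14541 genes. Leaving out 1 library gave 0 to 0, 2 to 4 and 2 to 4 members without the block, and 1 to 2, 4 to 4 and 4 to 5 with it. The count of 5 came from the fit without LPS number 4, where Lyz2 was added as higher in Hevin than in LPS, not lower. With 1 library left out, the tested genes called lower, higher and lower ran from 203 to 389, 1172 to 1478 and 1838 to 2220 without the block. With the block they ran from 728 to 1385, 1961 to 2398 and 2787 to 3188. Taking out the authors' scaling factors moved the median of all genes by -0.27 (log2) in LPS against Media and 0.30 in Hevin against LPS, upper quartile scaling by -0.10 and 0.11. The split of genes called higher and lower in LPS against Media was 1484 and 1413, and 736 and 4990 without those factors, 1136 and 2466 with upper quartile scaling and 1118 and 1664 with quantile normalization. In Hevin against LPS it was 2470 and 2215, and 5398 and 971, 3437 and 1643 and 2439 and 1741 in the same order. Under these scalings Saa3 and Slpi stayed called higher in LPS. Only values that were not called changed sign. Hp in Hevin against Media was -0.0422 with voom and the block, -0.0108 and -0.00408 with the block without Hevin number 3 and without Media number 4, and -0.31 to 0.92 with 1 library left out (-0.31, -0.16 and -0.08 without Hevin number 2, Media number 3 and Media number 4). Lcn2 in Hevin against Media was -1.79 to 0.58 with 1 library left out, with 0.58 without Media number 2. Lyz2 in LPS against Media was -0.13 to 0.10 with 1 library left out, 0.0661 without number 2 with or without the block, and 0.0346 and 0.0509 with the block without LPS number 2 and without Media number 2. Lyz1 in LPS against Media was 7.20e-04 with quantile normalization and -0.18 to 0.0118 with 1 library left out, and in Hevin against LPS 0.0956 without the authors' factors. The cause of these changes was not tested. Depth limits Ptx3 and Lyz1, at 3 to 77 and 47 to 93 reads.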
